A study of Mus musculus with 20 samples.

Results

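The cytosolic ribosomal protein genes were the rows of the count table whose symbol was Rpl or Rps followed by a number, with an optional suffix, or Rplp0, Rplp1, Rplp2 or Rpsa, with symbols containing -ps and the Rps6k kinases left out. This rule, which uses names and no measured value, took 89 of the 39017 genes in the table, 52 of the large subunit and 37 of the small subunit. RNA-seq had been run on sorted microglia and sorted astrocytes of the injured forebrain side in adult male C57BL/6 mice, 7 days after lateral fluid percussion injury (FPI), a model of traumatic brain injury with a focal and a diffuse component, or after a sham operation. There were 5 libraries each of sham microglia, FPI microglia, sham astrocytes and FPI astrocytes, each from cells of 1 animal, 20 in all. Microglia were gated as CD11b+ cells with intermediate CD45, a gate that brain macrophages can enter, and astrocytes by the surface antigen ACSA2. All groups share this strain and carry no further allele or agent in the labels, and 3 animals gave libraries of both cell types. FPI astrocyte library 5 is named with the suffix of the microglial libraries and with the same animal number as FPI astrocyte library 2. The astrocyte medians and direction counts and the interaction count are therefore also given without it. Most values of single genes in astrocytes and most differences between cell types include it.

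Ribosomal proteins assemble with ribosomal RNA into a small subunit, which reads the mRNA, and a large subunit, which forms the peptide bond. The cell needs them in nearly equal numbers, and their mRNAs are among the most abundant in growing cells. Most of these mRNAs begin with a run of pyrimidines, the terminal oligopyrimidine or TOP motif, through which mTORC1 signalling controls their translation. The same motif is known in mRNAs of elongation factors and of some other proteins of the translation machinery.

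Because the TOP motif is what these genes are best known to share in sequence, the stretch around the RefSeq start site was read for members whose microglial values are given below. In the following 30-base windows from RefSeq (GRCm38.p6), written 5′ to 3′ on the gene's own strand, capitals mark the longest run of C and T within 50 bases of the start. Rpl7l1, a paralog of Rpl7, is shown because its longest run was shorter than in most members. The windows lie at chr17:28328572-28328601 on the plus strand (Rpl10a), chr17:24720083-24720112 on the plus strand (Rps2), chr11:98026944-98026973 on the plus strand (Rpl19), chr2:39005115-39005144 on the minus strand (Rpl35), chr15:5116631-5116660 on the plus strand (Rpl37), chr17:33955648-33955677 on the minus strand (Rps18) and chr17:46782671-46782700 on the minus strand (Rpl7l1).
Rpl10a: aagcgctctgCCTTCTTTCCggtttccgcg
Rps2: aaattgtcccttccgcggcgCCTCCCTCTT
Rpl19: gcggcccacaagCTCTTTCCTTTCgctgct
Rpl35: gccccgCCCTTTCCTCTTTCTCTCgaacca
Rpl37: ggcgggggtgCTTTCTCTTCCggtctcttt
Rps18: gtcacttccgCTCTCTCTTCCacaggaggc
Rpl7l1: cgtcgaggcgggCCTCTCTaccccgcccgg

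A run of at least 8 bases made only of C and T, on the gene's own strand, was found within 50 bases of a RefSeq start in 53 of 63 members with an entry (84.1%), against 10614 of 27025 genes with an entry (39.3%). The share was 35 of 39 for the large subunit (89.7%) and 18 of 24 for the small subunit (75%). Rpl35 had 18 such bases in a row, Rpl19 had 12, and Rpl7l1 had 7. Relative to the RefSeq start, the runs shown began at 17 (Rpl10a), 40 (Rps2), 32 (Rpl19), -7 (Rpl35), 28 (Rpl37), -2 (Rps18) and -32 bases (Rpl7l1). Negative values lie upstream of the start. A TOP motif is at the very start of the mRNA, so a run counted here need not be one. A match is a description of these letters and was not tested as a regulatory site.

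The symbol rule and the genome annotation differed for 3 rows. The row with the symbol Rpl24 has the identifier ENSMUSG00000022601, which GENCODE M21 (GRCm38) places at chr16:55973883-56008913 and names Zbtb11, a zinc finger gene. The identifier of the Rpl24 locus itself, ENSMUSG00000098274 at chr16:55966275-55971435, carries the symbol RPL24 in capitals, which the rule does not match, and held 69 counts over the 20 libraries, with a count in 10 of them. The direction counts below are therefore also given without the row labelled Rpl24. The rows labelled Rps4y2 and Rps12l2 are named Rps4l and Rps12-ps24 in M21, and together with Rps12l1, Rps3a2 and Rps3a3 they are the 5 members with a pseudogene biotype. The other 84 members are annotated as protein coding.

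Library totals ran from 5623349 to 13110857 counts, with 94678 ± 27740 counts on members in sham microglia and 39473 ± 9388 in sham astrocytes (mean ± SD, n = 5). The marker lists matched the labels: the 6 microglial markers summed to between 15113 and 25859 CPM (counts scaled to a common library total, on the TMM scale) in microglia against 29.5 to 135 in astrocytes, and the 6 astrocyte markers to between 8794 and 28707 CPM in astrocytes against 231 to 562 in microglia. Astrocyte libraries also held myelin transcripts, with a sum over 6 oligodendrocyte markers between 1608 and 16856 CPM. The 5 oligodendrocyte precursor markers summed to 232 to 751 CPM in sham and 304 to 1339 CPM in FPI astrocytes. All 5 were higher after FPI, 3 at an unadjusted p below 0.05 (edgeR) against 1.57% of all genes, and none was called. The 6 astrocyte markers were lowest in replicates 4 and 5 of both astrocyte groups. In sorted bulk libraries, fewer cells of a type and less RNA per cell cannot be told apart, and a CPM is a share of the library and not an amount per cell.

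In microglia the ribosomal protein genes were higher after FPI as a group, and the medians of the large and small subunit were equal to the second decimal. Members took 1.09%, 1.07%, 1.07%, 1.11% and 1.17% of all counts in sham microglia libraries 1 to 5, and 1.35%, 1.86%, 1.16%, 1.60% and 1.84% in FPI microglia libraries 1 to 5. All FPI libraries but library 3 lay above every sham library, and FPI library 3 lay just below sham library 5. The large subunit alone took 0.690% ± 0.025 of counts in sham and 0.970% ± 0.195 in FPI microglia, and the small subunit 0.412% ± 0.027 and 0.592% ± 0.111 (mean ± SD, n = 5).

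**Figure D1:**
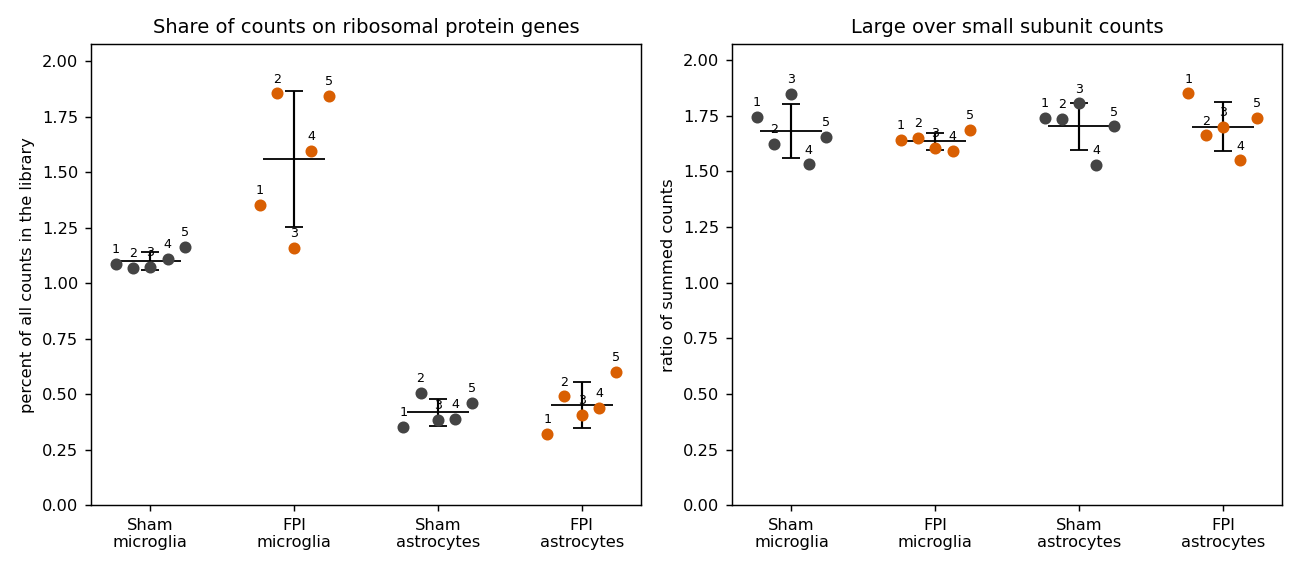
Left, percent of all counts in each library that fell on the 89 ribosomal protein genes, by group; right, summed counts of the large subunit genes divided by those of the small subunit genes. Points are libraries, numbered by replicate, and bars show the mean and SD of 5; the share lies between 1.16 and 1.86% in FPI microglia and between 1.07 and 1.17% in sham microglia, while the ratio lies between 1.53 and 1.85 in all groups.

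The question of the design was which genes differ between FPI and sham within each cell type, and it was put to every gene with edgeR's quasi-likelihood test and Benjamini-Hochberg adjustment over all genes tested. In microglia 84 members passed the filter on low counts, 49 of the large and 35 of the small subunit. At an adjusted p below 0.1, 42 of these rose after FPI and none fell, 26 of the large and 16 of the small subunit, against 2.64% of all genes tested that rose and 0.404% that fell. With the additional demand of a log2 fold change above 0.6 in size, 23 members rose (11 large, 12 small), against 2.13% of all 12143 genes tested that rose and 0.214% that fell under the same rule. At an unadjusted p below 0.05, 74 of 84 were higher and none lower, against 7.47% and 3.87% of all genes. The fold change was positive in 83 of the 84, or in 83 of 83 without the row labelled Rpl24, against 48.7% of all genes. The median log2 fold change was 0.56 over all members, 0.56 over the large and 0.56 over the small subunit, a 1.47-fold difference, against -0.01 over all genes. Members differed little among themselves: the middle 50% of them lay between 0.48 and 0.66, and the full range was -0.05 to 0.96.

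The 7 members described next, all among the 8 of smallest p, came from both subunits, and each of them was called. Over the alternative settings run, the call was lost in 3 for Rpl10a, 2 for Rpl35, 2 for Rps18 and 1 for Rpsa. For Rps2, Rpl19 and Rpl37 it held in all 22. The log2 fold change of Rpl10a ran down to 0.52, below the minimum of 0.6. In M21 (GRCm38) their genes lie at chr17:28328471-28331033 (Rpl10a), chr17:24718116-24721929 (Rps2), chr11:98026710-98030492 (Rpl19), chr2:39001580-39005624 (Rpl35), chr15:5116645-5119140 (Rpl37), chr9:120127689-120132369 (Rpsa) and chr17:33951999-33956001 (Rps18). Rpl10a, a protein of the large subunit near the stalk through which tRNA leaves, was counted at 76.4, 71.2, 80.4, 91.4 and 82.4 CPM in sham and at 135, 132, 115, 129 and 119 CPM in FPI microglia, with no overlap between the groups. Its log2 fold change was 0.65 ± 0.12 (SE, adjusted p = 0.00338), and unlike most members it was also raised in FPI library 3. Rps2, a protein of the small subunit close to the mRNA entry, stood at 69.2, 77.9, 72.3, 82.9 and 101 CPM in sham and at 125, 167, 100.3, 151 and 187 CPM in FPI microglia. The groups touched through sham library 5 and FPI library 3, and the log2 fold change was 0.86 ± 0.16 (SE, adjusted p = 0.00485).

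Rpl19, a large subunit protein that helps to bridge the subunits, was at 181, 183, 198, 198 and 240.1 CPM in sham and at 307, 402, 234, 374 and 390.5 CPM in FPI microglia. Here too only FPI library 3 fell within the range of sham, and the log2 fold change was 0.77 ± 0.14 (SE, adjusted p = 0.00505).

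Rpl35, which lies at the exit of the peptide tunnel, was at 80.6, 64.0, 80.5, 77.8 and 106.73 CPM in sham and at 119.8, 165, 106.86, 132 and 209 CPM in FPI microglia, the lowest FPI library being barely above the highest sham library (log2 fold change 0.84 ± 0.17 SE, adjusted p = 0.01). Rpl37, another large subunit protein, showed the largest fold change of all members tested, with 96.9, 107, 104, 117 and 158 CPM in sham and 218, 243, 112, 244 and 321 CPM in FPI microglia (log2 fold change 0.96 ± 0.20 SE, adjusted p = 0.0124). FPI library 3 was inside the sham range and the other 4 FPI libraries were above it.

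Rpsa, a small subunit protein also described as a laminin receptor, was at 346, 242, 310.1, 296 and 373 CPM in sham and at 481, 691, 381, 460.1 and 601 CPM in FPI microglia (log2 fold change 0.74 ± 0.16 SE, adjusted p = 0.0126), again without overlap. Rps18, of the head of the small subunit, was at 86.4, 104, 88.1, 122 and 130.1 CPM in sham and at 149, 192, 125, 194 and 199 CPM in FPI microglia (log2 fold change 0.70 ± 0.15 SE, adjusted p = 0.0167), with FPI library 3 inside the sham range. Of the 84 members tested, 8 had every FPI library above every sham library (3 large, 5 small) and none had every FPI library below, while 2.11% of all genes tested were entirely above and 1.11% entirely below. Among these 8 were Rpl10a, Rpl3, Rpl35, Rpsa, Rps6, Rps19 and the pseudogene Rps3a2.

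The members rose or stayed together from library to library. FPI library 5 was above all 5 sham libraries for 82 of 84 members, FPI library 4 for 80, FPI library 2 for 78 and FPI library 1 for 51, while FPI library 3 was above them for only 10. Relative to the sham mean, the median member stood at 0.85 on the log2 scale in FPI library 5, 0.74 in library 2, 0.68 in library 4, 0.36 in library 1 and 0.00 in library 3. FPI library 3 was the lowest of the FPI libraries for 75 of 84 members. Among sham libraries, library 5 was the highest for 54 members.

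**Figure D2:**
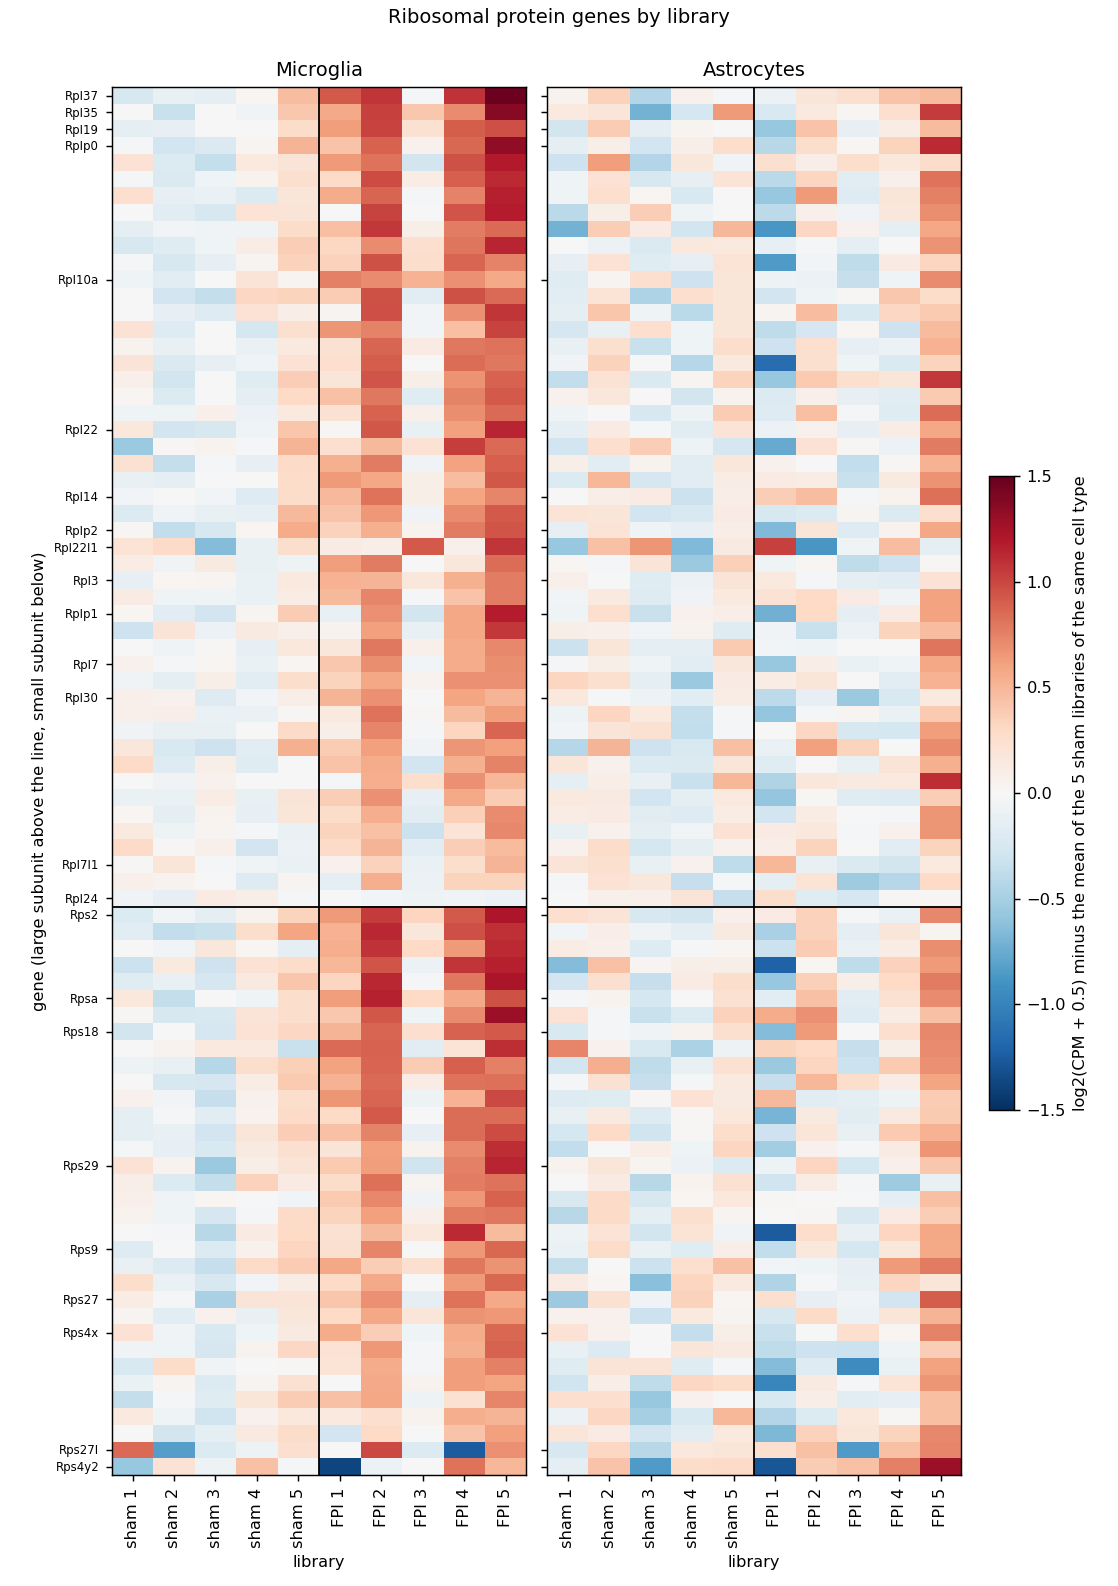
Each row is a ribosomal protein gene tested in both cell types, with names beside a selection of rows, and each column a library; colour shows log2(CPM + 0.5) minus the mean of the 5 sham libraries of the same cell type, from blue (lower) to red (higher), with the scale ending at 1.5 in either direction. In microglia FPI libraries 1, 2, 4 and 5 are red over most rows and FPI library 3 is pale; in astrocytes only FPI library 5 is red over most rows.

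Which library was left out decided how many members were called in microglia. The count was 51 without FPI library 3, 36 without sham library 5, 9 without FPI library 2, 10 without sham library 2 or 3, 12 without FPI library 5, and 14 without sham library 1 or FPI library 4, while the median stayed between 0.46 and 0.67. The number of all genes called, 285 with every library, moved as well, to 423 without FPI library 3, 277 without sham library 5, 177 without FPI library 2, 177 and 196 without sham libraries 2 and 3, 261 without FPI library 5, 210 without sham library 1 and 267 without FPI library 4. The microglial libraries carry names of 2 kinds, plain numbers for replicates 1 to 3 and a J series for replicates 4 and 5. Fitted alone, the first gave a median of 0.45 and 14 called members, with 364 of all 12351 genes called, and the second a median of 0.64 and 13 called members, with 99 of all 12151 genes called. With a term for the name series, 26 were called.

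Other features of the microglial libraries moved with the group, and their part in the result was not tested. Transcripts of the mitochondrial genome took 4.24 to 5.46% of counts in sham and 5.85 to 8.36% in FPI microglia. The 6 proliferation markers summed to 13.5 to 30.04 CPM in sham and to 57.4, 128, 36.2, 27.4 and 115 CPM in FPI libraries 1 to 5, and 2 of the 4 tested were called higher (Mki67 and Top2a). FPI libraries 2 and 5 were high in these markers and in the members, FPI library 3 was low in both among FPI libraries, and FPI library 4 was within the sham range for the markers and above it for most members. The 6 microglial markers summed to 19271 to 25066 CPM in sham and 15113 to 25859 CPM in FPI microglia, none of the 6 being called. Among them, 5 were lower and 1 higher in FPI than in sham microglia. Of the lower ones, 3 had an unadjusted p below 0.05 (edgeR), against 3.87% of all genes. The log2 fold changes of the 6 had their median at -0.22. The 6 monocyte and macrophage markers summed to 425, 267, 431, 26.2 and 21.2 CPM in sham microglia libraries 1 to 5. In FPI microglia libraries 1 to 5 they summed to 262, 179, 132, 21.1 and 63.2 CPM. In both groups the sums were lower in replicates 4 and 5, the J series, than in replicates 1 to 3. Ly6c2 was at 0 in all 10 libraries, and none of the 4 tested was called. The 6 astrocyte markers summed to 231 to 327 CPM in sham and 290.5 to 562 CPM in FPI microglia. Gfap was called higher (log2 fold change 2.78 ± 0.55 SE, edgeR adjusted p = 0.00772). All 6 were higher after FPI, 4 of them at an unadjusted p below 0.05 (edgeR), with a median log2 fold change of 0.85. Of the 5 oligodendrocyte precursor markers 3 were tested and Cspg4 was called higher, with a sum of at most 18.2 CPM in microglia. The 6 oligodendrocyte markers summed to 137 to 197 CPM in sham and 197 to 286 CPM in FPI microglia, and 1 of the 5 tested was called higher.

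In astrocytes no member passed the test. Of 83 members tested, none had an adjusted p below 0.1 in edgeR's quasi-likelihood test or in DESeq2 and none an unadjusted p below 0.05 in edgeR, against 1 of all 13741 genes called higher (0.00728%) and none called lower. At an unadjusted p below 0.05, 1.57% of all genes were higher and 0.75% lower. The fold change was positive in 65 members and negative in 18, or 65 and 17 without the row labelled Rpl24, against 49.2% positive among all genes. The median log2 fold change was 0.11, with 0.10 over the 49 large and 0.12 over the 34 small subunit genes, and the range was -0.22 to 0.47. In simulated data with the depth and spread of the astrocyte libraries, 39 of 100 genes changed by 1 on the log2 scale were recovered. Those genes were drawn at random from all genes tested, so this share is not the sensitivity for the members. No change as small as the microglial median was simulated.

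Members took 0.353%, 0.506%, 0.383%, 0.389% and 0.461% of counts in sham astrocyte libraries 1 to 5 and 0.320%, 0.491%, 0.407%, 0.440% and 0.601% in FPI astrocyte libraries 1 to 5. The groups overlapped throughout except for FPI library 5 at the top and FPI library 1 at the bottom. FPI library 5 was above all sham libraries for 70 of 83 members and was the highest FPI library for 72. By contrast, FPI library 1 was below all sham libraries for 35. Among astrocyte libraries, FPI library 5 also had the highest sums of oligodendrocyte precursor (1339 CPM), proliferation (71.5 CPM) and microglial markers (135 CPM). The microglial sum was 38.7 to 119 CPM in FPI libraries 1 to 4 and 29.5 to 58.5 CPM in sham. All 5 microglial markers tested were higher in FPI astrocytes, with a median log2 fold change of 2.96, and none was called. Of these, 3 had an unadjusted p below 0.05 (edgeR), against 1.57% of all genes. The part of these markers in the astrocyte values was not tested. Without FPI library 5 the median log2 fold change turned to -0.05, with 28 members positive and 55 negative, and with FPI libraries 2 and 5 summed into 1 it was 0.01.

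The members of smallest p in astrocytes show how small these differences were beside the spread. Rpl14, of the large subunit, was at 35.6, 38.6, 39.2, 28.5 and 38.6 CPM in sham and at 46.5, 49.6, 35.4, 37.3 and 63.8 CPM in FPI astrocytes (log2 fold change 0.36 ± 0.18 SE, adjusted p = 0.999). Rpl30, a large subunit protein at the interface, had the smallest p in the other direction, with 31.7, 28.1, 26.9, 25.3 and 30.8 CPM in sham and 21.6, 26.1, 19.1, 24.3 and 31.6 CPM in FPI astrocytes (log2 fold change -0.22 ± 0.16 SE, adjusted p = 0.999). In both, the libraries of the groups interleaved. The next on the higher side were Rps28 (0.34 ± 0.21), Rpl6 (0.25 ± 0.15) and Rpl37 (0.24 ± 0.17), and on the lower side Rps21 (-0.17 ± 0.17), Rpl21 (-0.16 ± 0.18) and Rps15a (-0.12 ± 0.18, log2 fold changes ± SE), each with an adjusted p of 0.999.

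**Figure D3:**
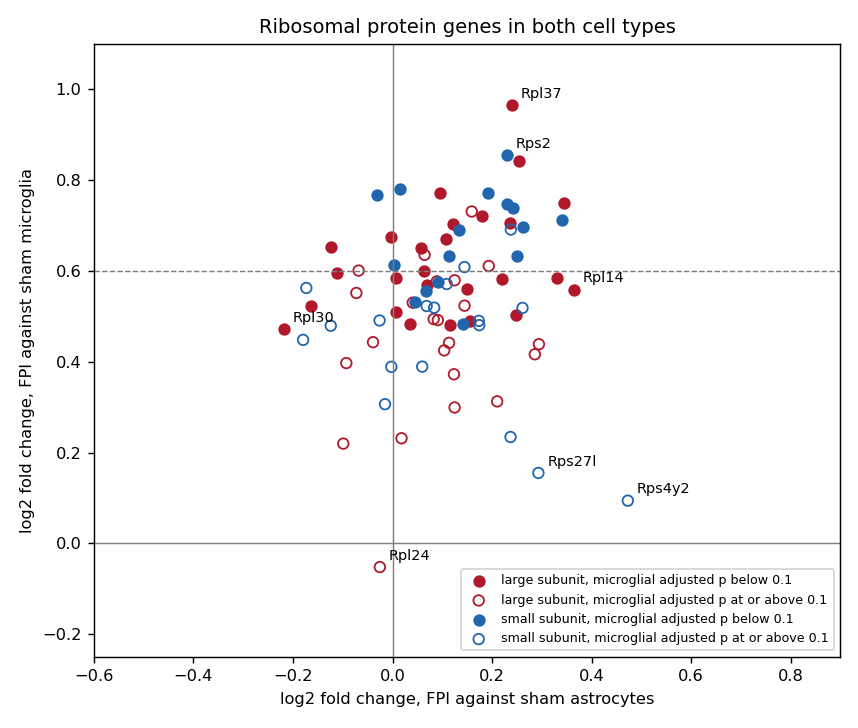
Log2 fold change of each of the 83 ribosomal protein genes tested in both cell types, FPI against sham astrocytes on the horizontal and FPI against sham microglia on the vertical axis. Red is the large and blue the small subunit, filled points have a microglial adjusted p below 0.1, and the dashed line marks 0.6; the points spread around a median of 0.11 horizontally and 0.56 vertically, with the row labelled Rpl24 at -0.05 in microglia.

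Whether the FPI effect differed between the cell types was asked with the interaction term of a fit to all 20 libraries. That fit took the libraries as independent, although 3 animals gave libraries of both cell types. No member passed at an adjusted p below 0.1 (edgeR), against 0.0332% of all 15077 genes with a larger and 0.166% with a smaller effect in microglia. The difference was positive in 81 of 84 members, or 81 of 83 without the row labelled Rpl24, against 51.5% of all genes. At an unadjusted p below 0.05, 23 of 84 members had the larger effect in microglia and none the smaller, against 3.77% and 3.24% of all genes. That count was 43 without FPI astrocyte library 5, with a median difference of 0.59, and 37 without FPI microglia library 3, and it ran down to 10, reached without FPI microglia library 5 or sham astrocyte library 2. It moved by over 1.5 times in 14 of the 20 fits that left out 1 library. The median difference in log2 fold change was 0.47, 0.48 for the large and 0.47 for the small subunit. The smallest p belonged to Rpl30 (difference 0.70 ± 0.21 SE, adjusted p = 0.306). Members called in microglia and not in astrocytes are thus not shown, gene by gene, to respond differently in them.

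The ratio of large to small subunit counts was 1.68 ± 0.12 in sham microglia, 1.64 ± 0.04 in FPI microglia, 1.70 ± 0.10 in sham astrocytes and 1.70 ± 0.11 in FPI astrocytes (mean ± SD, n = 5), so the difference between groups was smaller than the SD of either group in astrocytes, and in microglia smaller than the SD of sham and larger than that of FPI. In microglia it was 1.74, 1.63, 1.85, 1.53 and 1.66 in sham libraries 1 to 5 and 1.64, 1.65, 1.61, 1.59 and 1.69 in FPI libraries 1 to 5. All FPI values lay inside the range of sham.

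The stalk of the large subunit, which recruits the elongation factors, is made of Rplp0, Rplp1 and Rplp2, and of these Rplp0 was called. Rplp0 was at 308, 258, 270.4, 323 and 448 CPM in sham and at 423, 581, 328, 574 and 795 CPM in FPI microglia (log2 fold change 0.75 ± 0.20 SE, adjusted p = 0.0545). That call was lost without sham library 1, 2, 3 or 4 or FPI library 2, 4 or 5, with adjusted p between 0.112 and 0.177 in edgeR. Rplp1 and Rplp2 did not pass (0.49 ± 0.21, adjusted p = 0.354, and 0.53 ± 0.18, adjusted p = 0.166, edgeR). Rplp2 passed without sham library 5 or FPI library 3, and Rplp1 in 1 fit that left out 1 library (log2 fold change 0.64). Which stalk genes were called thus depended on single libraries. Rplp1 was at 395, 347, 317, 399.5 and 507 CPM in sham and at 360.2, 625, 322, 580.3 and 879 CPM in FPI microglia, FPI libraries 1 and 3 being inside the sham range. In astrocytes the log2 fold changes were 0.34 ± 0.25 for Rplp0, 0.08 ± 0.23 for Rplp1 and 0.04 ± 0.21 for Rplp2 (SE), none called.

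Paralogs, which can replace the usual protein in particular tissues, ranged from undetected to nearly the level of their partners. Rpl10l had no count in any library, and 3 counts were taken as the floor of each library. Rpl3l had no count in the 10 microglial libraries and 10 in sham and 5 in FPI astrocytes in all, and Rpl39l had 8 in sham and 10 in FPI microglia and 5 in sham astrocytes, so no fold change is given for them. Rpl22l1 stood at 6.40 ± 1.68 CPM in sham microglia against 141 ± 29.4 for Rpl22, Rps27l at 4.35 ± 2.09 against 42.1 ± 7.50 for Rps27, and the row labelled Rps4y2 at 7.92 ± 2.08 against 177 ± 21.4 for Rps4x (mean ± SD, n = 5). Per kb of exon the same pairs stood at 3.22 and 48.5, 5.34 and 40.4, and 8.40 and 108 CPM. Rpl7l1, which acts in ribosome assembly, was at 17.3 CPM per kb against 81.3 for Rpl7, and Rpl36al at 24.5 against 27.1 for Rpl36a.

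After FPI the paralogs did not pass the test in microglia. Their log2 fold changes were 0.52 ± 0.34 for Rpl22l1, 0.23 ± 0.14 for Rpl7l1, 0.58 ± 0.20 for Rpl36al, 0.16 ± 0.51 for Rps27l and 0.09 ± 0.38 for the row labelled Rps4y2 (SE). Rps27l was at 7.63, 2.05, 3.43, 3.80 and 4.86 CPM in sham and at 4.01, 8.46, 3.41, 1.41 and 6.75 CPM in FPI microglia, with the groups fully mixed, and its sign changed with the library left out. Of their partners Rpl3 (0.51 ± 0.12, adjusted p = 0.0299) and Rpl7 (0.48 ± 0.13, adjusted p = 0.0702) had an adjusted p below 0.1 (edgeR) with a fold change below 0.6. Rpl10 (0.31 ± 0.15), Rpl22 (0.58 ± 0.20), Rpl36a (0.60 ± 0.18), Rpl39 (0.64 ± 0.21), Rps4x (0.48 ± 0.15) and Rps27 (0.49 ± 0.18) did not reach it. The row labelled Rpl24, which M21 names Zbtb11, was at 46.7, 44.7, 53.0, 51.6 and 47.6 CPM in sham and at 48.9, 47.1, 46.3, 46.9 and 45.6 CPM in FPI microglia, with a log2 fold change of -0.05 ± 0.13 (SE).

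Between the cell types, members were higher in microglia. Averaged over sham and FPI, 81 of 84 were called higher and 1 lower, against 27.1% and 37.2% of all 15077 genes. At an adjusted p below 0.1 with no minimum fold the counts were 82 and 1, against 34.5% and 42.3% of all genes, at an unadjusted p below 0.05 they were 82 and 0, against 33.3% and 41.2%, and 83 of 84 were above 0, or 82 of 83 without the row labelled Rpl24, against 45.8%. The median log2 fold change between the cell types was 1.53 (2.89-fold), with 1.53 over the large and 1.54 over the small subunit. Rps29, a small zinc-binding protein, differed the most. It was counted at 135 ± 26.3 CPM in sham and 198 ± 63.1 CPM in FPI microglia and at 26.0 ± 2.93 and 27.5 ± 5.14 CPM in sham and FPI astrocytes (mean ± SD, n = 5). The log2 fold change was 2.62 ± 0.15 (SE, edgeR adjusted p = 1.68e-12). The 10 microglial libraries lay between 88.7 and 280.5 CPM and the 10 astrocyte libraries between 21.6 and 33.6 CPM, without overlap.

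Rplp1 (2.37 ± 0.18) and Rps9 (2.17 ± 0.14) were also among the 4 members that differed most, Rps9 being a protein of the small subunit that bears on decoding accuracy. At the other end was the row labelled Rps4y2, annotated as a transcribed processed pseudogene, which was lower in microglia by the same rule (-0.61 ± 0.30 SE, edgeR adjusted p = 0.0733), with libraries from 2.57 to 13.7 CPM in microglia and from 3.71 to 24.8 CPM in astrocytes. This call was lost on library totals alone and in 11 of the 20 fits that left out 1 library, FPI astrocyte library 5 among them. The paralogs Rps27l (0.18 ± 0.32) and Rpl22l1 (0.70 ± 0.28) and the row labelled Rpl24 (0.55 ± 0.09) were next to it at the bottom of the order. Mitochondrial transcripts took 9.37 to 18.1% of counts in astrocytes against 4.24 to 8.36% in microglia, and their part in the difference between cell types was not tested.

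**Figure D4:**
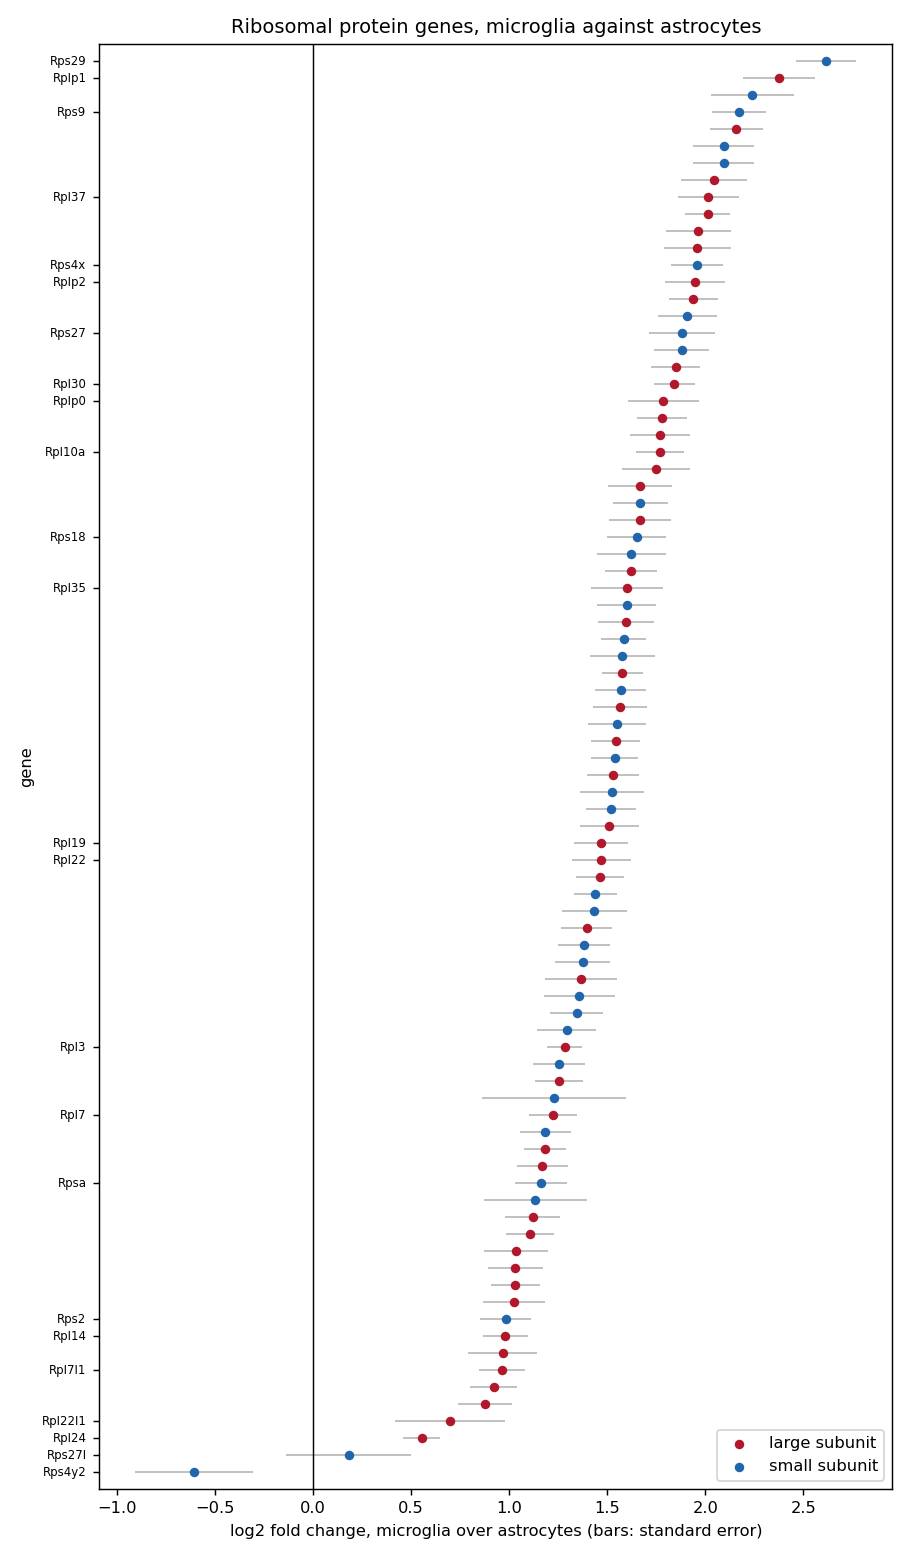
Log2 fold change of each of the 84 tested ribosomal protein genes, microglia over astrocytes, averaged over sham and FPI, with the standard error as a bar and names beside a selection of genes; red is the large and blue the small subunit. All genes but the row labelled Rps4y2 lie above 0, with Rps29 at 2.62 the highest and the median at 1.53.

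Levels were compared between genes per kb of exon, with exon lengths as the union of the exons in M21, which are long where a gene has extended transcripts. Among the tested members of sham microglia, Rplp1 was highest at 788 CPM per kb, followed by Rps23 at 277 and Rpl26 at 211, and the lowest were Rps3a2 at 1.65, Rpl22l1 at 3.22 and Rps27l at 5.34. In sham astrocytes Rplp1 was again highest at 171 CPM per kb, before Rpl36 at 118 and Rpl8 at 93.2, and Rpl22l1 (2.21), Rps3a3 (2.85) and the row labelled Rpl24 (4.33) were lowest. The median member stood at 54.8 CPM per kb in sham microglia and 21.9 in sham astrocytes.

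Members with and without a run of C and T near the start were also set side by side. In microglia the median log2 fold change was 0.56 for the 51 tested members with a run of at least 8 bases, 0.56 for the 9 with a shorter run and 0.53 for the 24 without an entry. In astrocytes the medians were 0.12, 0.07 and 0.07.

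Other genes of the translation machinery, from lists of known members, did not all follow. Rack1, a scaffold on the small subunit, was called higher in FPI microglia, at 168, 130.3, 147, 196 and 173 CPM in sham and 223, 265, 179, 280.4 and 301 CPM in FPI libraries (log2 fold change 0.62 ± 0.15 SE, adjusted p = 0.0322). Fau, the small subunit protein made as a fusion with a ubiquitin-like protein, did not pass (0.52 ± 0.16 SE, adjusted p = 0.112).

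Among 22 other genes whose mRNAs are known to carry the TOP motif, 22 of 22 had a positive fold change in microglia, against 48.7% of all genes. An adjusted p below 0.1 (edgeR) was reached by 9 of them, against 2.64% of all genes that rose. Of the 22, 4 were called higher, against 2.13% of all genes, and none lower, and the median was 0.48. This list also holds Rack1 and Fau. The 4 were Npm1, a nucleolar chaperone of ribosome assembly (0.87 ± 0.15, adjusted p = 0.00211), Pabpc1, which binds the poly(A) tail (0.68 ± 0.14, adjusted p = 0.00884), the intermediate filament gene Vim (1.46 ± 0.31, adjusted p = 0.0126) and Rack1. In astrocytes none of the 22 passed and the median was 0.12. Of 11 elongation and termination factors, 3 had an adjusted p below 0.1 in microglia (Eef1a1, Eef1g and Eef2, which are also in the TOP list), none was called, and the median was 0.30.

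Factors that build ribosomes or start translation gave medians nearer 0. Of 60 ribosome biogenesis genes 20 were higher and 40 lower in FPI microglia, 1 was called higher (Npm1) and none lower, and the median was -0.07. Of 37 initiation factors Pabpc1 alone was called and the median was 0.14. Of 25 nascent chain and ribosome-associated factors, Zfp598, a ubiquitin ligase that senses collided ribosomes, was called lower, at 33.6, 53.3, 63.05, 44.3 and 58.3 CPM in sham and 24.7, 24.3, 40.7, 34.6 and 34.8 CPM in FPI microglia (log2 fold change -0.67 ± 0.19 SE, adjusted p = 0.0941), and the median was 0.01. None of 19 tested regulators of ribosomal protein mRNA translation and none of 11 tested snoRNA host genes was called, with medians of -0.02 and 0.26. None of these lists had a member called in astrocytes.

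The genes of the mitochondrial ribosome, which share the function and not the compartment, differed from the cytosolic members in these values. Of 75 tested in microglia 42 were higher and 33 lower after FPI, none had an adjusted p below 0.1, 1 was higher and 1 lower at an unadjusted p below 0.05, and the median was 0.03. In astrocytes the median over 75 was -0.11, again with none passing. The 222 rows for ribosomal protein pseudogenes with -ps in the symbol, which can take reads from the parent genes, held 0.037% ± 0.004 of counts in sham and 0.061% ± 0.014 in FPI microglia (mean ± SD, n = 5). Of the 47 such rows tested in microglia 45 were higher after FPI, against 48.7% of all genes, with a median of 0.72. Called higher were 7 of the 47, against 2.13% of all genes. Near-identical copies thus moved in the same direction as the members, and the share of reads divided between them is uncertain.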

How the data were processed

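RNA-seq libraries of sorted mouse microglia and astrocytes were analysed, 5 per group. The authors prepared them with a stranded total RNA kit for low input and aligned reads to mm10 (GRCm38.p6) with HISAT2 2.1.0. The counts they deposited are whole numbers per gene, from featureCounts by the labels, while their own tests used salmon estimates, not analysed here. The strand setting of the counting is not given in the sources used here. Members and gene lists were chosen with earlier results of these data known; the mitochondrial ribosome and pseudogene lists and the handling of the Rpl24 row were added after counts were read. FPI and sham were compared within a cell type by edgeR 4.0.16 (filterByExpr, TMM, quasi-likelihood F test), with Benjamini-Hochberg adjustment over all genes tested. The cell type and interaction contrasts used a fit to all 20 libraries, taken as independent. Genes were called at an adjusted p below 0.1 and a log2 fold change above 0.6 in size. Standard errors are the log2 fold change over the square root of F. CPM are on the TMM scale of the fit of the same cell type, or of all 20 libraries for the cell type contrast. A score over members got no test.

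Named genes were the members with an adjusted p below 0.1 after FPI (up to 8 by p), the 4 of smallest p in each direction, the 3 highest and lowest per length, the 4 with the largest difference between cell types in each direction, paralog pairs, Rplp0, Rplp1, Rplp2 and Rpsa, the ribosomal proteins outside the symbol rule, and called genes of the lists. In data simulated for 12143 genes with the microglial means and library sizes, changed genes were drawn at random from all genes tested. Of these, 74 of 100 changed by 1 and 90 of 100 changed by 2 on the log2 scale were recovered, with 12 false calls. Each library came from 1 animal; 3 animals gave both cell types, and by their names FPI astrocyte libraries 2 and 5 may share an animal. Alternatives were DESeq2 1.42.0, other scalings and filters, robust estimation, terms for name series or replicate, and each library left out. Totals ran from 5623349 to 13110857 counts. Python 3.11.15 and R 4.3.3 were used. Results for a few genes that the rule would name are not reported here.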

Additional observations from a re-analysis of the deposited data

Results flagged for a closer look

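Of 100 groups of 5 libraries examined, 3 held a library whose gap to the nearest other exceeded 0.71 of the range; chance flags about 1 in 20 groups. Rpl39l was counted in 1 library of sham microglia (0.914 CPM in library 3, 0 in the other 4) and in 1 of FPI microglia (1.24 CPM in library 2, 0 in the other 4). The pseudogene Rps3a2 was at 4.13 CPM in FPI microglia library 1, against 1.65 to 2.24 CPM in the other 4. These rows have few counts, and none of them was called.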

How the results depend on the processing

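The number of members called in FPI microglia, 23, was 9 to 51 when each library was left out in turn (9 without FPI library 2, 51 without FPI library 3). The count was 42 without the minimum fold, 5 with all 20 libraries fitted together, and 14 and 13 in the name series fitted alone, the last pair chosen after seeing the data. It stayed within 1.5 times under the other settings, with 28 in DESeq2 and 17 on library totals alone. The subunit medians in microglia stayed positive throughout. With each library left out they were 0.44 to 0.66 (large) and 0.48 to 0.67 (small), and in astrocytes -0.06 to 0.15 (large) and -0.02 to 0.20 (small), negative only without FPI library 5. No member was called in astrocytes, and none for the interaction, under any setting run; 81 or 82 were called between cell types with each library left out. Library totals alone moved the median of all genes in microglia from -0.01 to -0.07 and of the members from 0.56 to 0.50. Log2 fold changes of these genes, none of them called, changed sign. Rps27l in microglia was -0.070 in the J series alone and -0.15 to 0.46 with each library left out. In astrocytes, with each library left out, Rpl22l1 was -0.20 to 0.34, the row labelled Rpl24 -0.12 to 0.026, Rpl8 -0.072 to 0.19 and Rplp1 -0.10 to 0.21. Rplp1 was -0.052 with FPI libraries 2 and 5 summed. The cause was not tested. Correlations of same-numbered libraries were -0.07 to 0.09 in microglia, and in astrocytes 0.25 to 0.45 for 4 numbers and -0.01 for replicate 2. Replicate numbers were not taken as pairs in the main fits. For astrocytes these correlations do not settle that choice, so the fits with a replicate block are given beside them. With the replicate block 23 members were called in microglia and 0 in astrocytes, and the block took all called genes in microglia from 285 to 255 and in astrocytes from 1 to 11; 3 of 5 numbers in astrocytes and 2 of 5 in microglia correlated best with their own. Members with an unadjusted p below 0.05 for the interaction were 23, 40 with the replicate block, 14 on library totals alone, and 10 to 43 with each library left out. Rpl10l, Rpl3l, Rpl39l, Rps12l1 and Rps12l2 did not pass the filter on low counts in either cell type and were not tested there.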
